A study of Mus musculus with 18 samples.

Results

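The 30 8-mers described here hold the octamer TGATGCAA, or 7 of its 8 bases in a row, in either orientation. The octamer, called the composite here, starts with the first 3 bases of the cAMP response element (CRE, TGACGTCA), goes on with a thymine and ends with GCAA, the C/EBP half-site of the series title. An 8-mer was taken where it, or its reverse complement, held the first 7 or the last 7 bases of the composite, a rule that uses sequence alone. Of the 65530 8-mers in the authors' table, 15 had the composite on the synthesised strand of the probe and 15 had it on the printed strand. All 30 were among the 65121 8-mers that at least 1 probe carried and that were tested.

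CREB1, ATF1 and JUND were studied on protein binding microarrays, where a tagged protein binds double-stranded probes and the bound protein is read by fluorescence. Each protein was the DNA-binding domain of the mouse sequence with short native flanks, tagged with glutathione S-transferase and produced in a cell-free transcription and translation system, so the arrays held neither full-length proteins nor cells. A primer was extended along the printed strand of each probe, and the new strand took up plain cytosine (C), 5-methylcytosine (5mC) or 5-hydroxymethylcytosine (5hmC), so that every cytosine of the synthesised strand carried the modification while the printed strand kept plain cytosine. The 9 groups were CREB1, ATF1 and JUND on each of the 3 kinds of DNA, with 2 arrays a group and 18 in all, and the group on C was the control of each protein.

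CREB1, ATF1 and JUND are bZIP proteins, which bind DNA as dimers, with each partner reading one half-site in the major groove. CREB1 and ATF1 are close relatives that mediate transcription in response to cyclic AMP through the palindromic CRE, whose centre is a CpG, and JUND is a subunit of AP-1, which binds TGACTCA. C/EBP proteins, another bZIP family, read GCAA, and a site that joins an ATF half-site to a C/EBP half-site with TG at the centre is known as a C/EBP-ATF response element, bound by heterodimers such as those of ATF4 with a C/EBP protein in stress responses.

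The sequences below show which bases of the composite carried the modification in each orientation. Each is written 5′ to 3′ as it read on the synthesised strand, and capitals mark the cytosines that were 5mC or 5hmC on modified DNA. The chimera has C in place of T at position 4 and so holds a CpG.
composite on the synthesised strand: tgatgCaa
composite on the printed strand: ttgCatCa
chimera on the synthesised strand: tgaCgCaa
chimera on the printed strand: ttgCgtCa
CRE palindrome: tgaCgtCa
octamer with T at position 2: ttatgCaa

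On the synthesised strand the composite has 1 modified cytosine, at position 6, inside GCAA. Read the other way, it puts 2 modified cytosines on the synthesised strand, at positions 4 and 7 of TTGCATCA, opposite the guanines of the composite, while the cytosine of GCAA itself is plain. The 14 other members with the composite on the synthesised strand fall in 4 sets: tgatgCaC, tgatgCag and tgatgCat have another last base, agatgCaa, CgatgCaa and ggatgCaa have another first base, atgatgCa, CtgatgCa, gtgatgCa and ttgatgCa hold the first 7 bases with the base before, and gatgCaaa, gatgCaaC, gatgCaag and gatgCaat hold the last 7 with the base after. CGATGCAA and its reverse complement TTGCATCG are the members that hold a CpG, created by the changed end base. Each member was carried by 15 to 20 probes in its orientation. Neighbouring members overlap and share probes, so they are not independent measurements.

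The method of the authors' z-score is not stated in the sources used here. The z-score of an 8-mer is read here as how far its probes lie above the typical 8-mer of the same array. It was on a linear scale with a median near 0. It ranked with the signal of probes that held the 8-mer on the synthesised strand (Spearman rho 0.957 to 0.975 over the 18 arrays, across 8-mers, which are not replicates) whereas for probes with the 8-mer on the other strand rho was -0.0807 to 0.509. Array medians of the raw signal ran from 519 to 8014 units, and all tests were made on z-scores unless log2 signal is named. Differences were tested in limma over all tested 8-mers, and a member is said to rise or fall where the adjusted p was under 0.05. Whether both arrays of a group had their own protein preparation is not given, so p-values here reflect the array-to-array spread alone, which may be technical.

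On unmodified DNA the composite was a weak site for CREB1 in both orientations. TGATGCAA had CREB1 z-scores of 8.81 and 15.4 (mean 12.1 ± 4.69, SD, n = 2), which ranked it 865 of 65121, and TTGCATCA had 3.70 and 5.92 (4.81 ± 1.57). The CRE palindrome, on the same arrays, had z-scores of 193 and 136, and the chimera TGACGCAA had 66.4 and 78.1. The z-score of TGATGCAA minus that of TTGCATCA was 7.31 (SE 8.57, adjusted p = 0.652) and was not called, while on the log2 signal the difference was 0.76 (SE 0.157, adjusted p = 0.00103) and was called. Of the 15 orientation pairs, GATGCAAG was higher than its reverse complement by 1.99 and TGATGCAC was lower than its own by 4.49, against 10.9% of all pairs called in either direction. On the log2 signal 4 pairs were called, TGATGCAA and GATGCAAG as higher and TGATGCAC and TTGATGCA as lower than their reverse complements, against 25.1% of all pairs. The median orientation difference of the 15 pairs was 0.599.

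With 5hmC on the synthesised strand, TGATGCAA became the 8-mer with the highest mean CREB1 z-score of all 65121. Its z-scores were 113 and 164 (mean 139 ± 35.7, n = 2), and both arrays lay far above both arrays on C. The z-score rose by 126 (SE 16.4, adjusted p = 1.91e-05), and leaving out any 1 of the 18 arrays kept the call, with a rise from 101 to 152. The log2 signal of its 17 probes, centred on each array's median, rose by 2.41 (SE 0.32, adjusted p = 8.39e-06).

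All 15 members with the composite on the synthesised strand had higher CREB1 z-scores on both 5hmC arrays than on both C arrays, where 23.6% of all 8-mers did. Of the 15, 10 rose and none fell, while 1.12% of all 8-mers rose and 6.78% fell. The median change was 6.01 over the 15 and -0.06 over all 8-mers. Only the composite and GGATGCAA rose in a fit of the CREB1 arrays alone, against 1.02% of all 8-mers, and 5 members rose without CREB1 C replicate 1 and also without CREB1 5hmC replicate 2.

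After the composite, GATGCAAT rose most with 5hmC, from 0.935 and 2.62 on C to 29.7 and 49.7, a change of 37.9 (SE 7.02, adjusted p = 0.00101). It holds the last 7 bases followed by T. GTGATGCA, which holds the first 7 bases after a G, went from 3.27 and 7.36 to 31.2 and 40.5, a change of 30.5 (SE 4.19, adjusted p = 3.93e-05). CGATGCAA went from 1.05 and 1.97 to 17.6 and 25.8, a change of 20.2 (SE 4.88, adjusted p = 0.0105), a call that was lost without CREB1 C replicate 1, CREB1 C replicate 2 or CREB1 5hmC replicate 2 (adjusted p from 0.0518 to 0.118). In all 3 the modified arrays lay well above the C arrays, though in the fit of the CREB1 arrays alone the adjusted p was 0.195 for GATGCAAT, 0.163 for GTGATGCA and 0.268 for CGATGCAA. The smallest of the 15 changes was that of TTGATGCA, which reached only 2.53 and 2.45 from 0.547 and 0.461.

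With 5mC the CREB1 z-score of TGATGCAA was higher too, but its 2 arrays differed widely. They gave 76.8 and 36.8 (mean 56.8 ± 28.3, n = 2), a rank of 10 of 65121. The change from C was 44.7 (SE 16.4), and it ranged from 24.6 to 64.7 when each array was left out in turn. It missed the threshold in the fit of all 18 arrays (adjusted p = 0.112). It passed in the fit of the CREB1 arrays alone (adjusted p = 0.0221), without the JUND arrays (0.0129) and without CREB1 5mC replicate 2 (0.045), JUND C replicate 1 or JUND 5hmC replicate 1, and the log2 signal of its probes rose by 1.89 (SE 0.32, adjusted p = 0.00019).

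Of the 15 members on the synthesised strand, 7 rose in CREB1 with 5mC and none fell, against 2.25% of all 8-mers that rose and 6.21% that fell. Both 5mC arrays lay above both C arrays for 14 of the 15, and for 21.8% of all 8-mers. The median change was 4.53 over the 15 and -0.06 over all 8-mers. The count of 7 dropped to 4 without CREB1 C replicate 1 and to 2 without CREB1 5mC replicate 1, and it was 3 after quantile normalization and 12 on the log2 signal, against 1.34% and 5.3% of all 8-mers.

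GATGCAAT had CREB1 z-scores of 35.0 and 19.0 on 5mC, 25.2 above C (SE 7.02, adjusted p = 0.0264). CGATGCAA had 37.9 and 12.9, 23.9 above C (SE 4.88, adjusted p = 0.0024), and GATGCAAC had 21.9 and 7.59, 12.2 above C (SE 3.40, adjusted p = 0.0275). In each of them replicate 1 was far higher than replicate 2, and both were above the C arrays. Without CREB1 5mC replicate 1 the change of GATGCAAT was 17.2 (adjusted p = 0.197) and that of GATGCAAC 5.01 (adjusted p = 0.43). Both calls were also lost if either CREB1 C array was left out, and that of GATGCAAT without either ATF1 C array or JUND 5mC replicate 2, while CGATGCAA stayed called without any 1 array, with a change from 11.4 to 36.4. In the fit of the CREB1 arrays alone none of the 3 passed (adjusted p from 0.183 to 0.423).

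5hmC and 5mC were also compared directly. TGATGCAA was 81.8 higher on 5hmC than on 5mC in CREB1 (SE 16.4, adjusted p = 0.0159), with no overlap between the arrays, and GTGATGCA was 19.2 higher (SE 4.19, adjusted p = 0.0291). The latter call was lost in the fit of the CREB1 arrays alone (adjusted p = 0.498). These 2 were the members called, against 0.186% of all 8-mers higher and 0.766% lower on 5hmC. For TGATGCAA the call was lost without CREB1 C replicate 1, CREB1 C replicate 2, CREB1 5mC replicate 2, CREB1 5hmC replicate 2 or ATF1 C replicate 1 (adjusted p from 0.0528 to 0.31). On the log2 signal the difference was 0.52 (SE 0.32, adjusted p = 0.368).

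With the composite on the printed strand the CREB1 values went the other way. TTGCATCA had 3.70 and 5.92 on C, 2.88 and 0.360 on 5mC, and 0.849 and 0.669 on 5hmC, so that all modified arrays lay below both C arrays. It fell by 3.19 with 5mC (SE 0.905, adjusted p = 0.0301) and fell by 4.05 with 5hmC (SE 0.905, adjusted p = 0.00563). Its rank by mean z-score went from 2655 on C to 6794 on 5mC and 15664 on 5hmC. Leaving out CREB1 C replicate 2 ended both calls (adjusted p = 0.365 with 5mC and 0.132 with 5hmC), and leaving out CREB1 5mC replicate 2 ended the former (0.404).

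Of the 15 members with the composite on the printed strand, 4 fell in CREB1 with 5mC and 6 fell with 5hmC, and none rose. Of all 8-mers, 6.21% fell with 5mC and 6.78% with 5hmC. The median change was -1.36 with 5mC and -1.32 with 5hmC, and -0.06 over all 8-mers in each case. Both modified arrays lay below both C arrays for 7 of the 15 with 5mC and for 9 with 5hmC, against 28.8% and 29.3% of all 8-mers. Without CREB1 C replicate 2 the counts were 1 and 2, without CREB1 5mC replicate 2 the 5mC count was 1, and after quantile normalization they were 0 and 2, against 1.79% and 2.14% of all 8-mers.

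TGCATCAC, which on the printed strand reads GTGATGCA, fell most. Its CREB1 z-scores were 4.80 and 9.67 on C, 1.97 and 0.617 on 5mC, and -0.160 and 0.573 on 5hmC. It fell by 5.95 with 5mC (SE 1.08, adjusted p = 0.000769) and fell by 7.03 with 5hmC (SE 1.08, adjusted p = 0.000138), and both calls held without any 1 array. TGCATCAT had 2.61 and 7.38 on C, 1.02 and -0.777 on 5mC and 0.902 and 0.149 on 5hmC. CTGCATCA had 2.19 and 5.24 on C, 0.515 and 0.739 on 5mC and -0.274 and -0.931 on 5hmC. Both fell with either modification (adjusted p from 0.000598 to 0.0198), and the call of CTGCATCA with 5hmC held without any 1 array. That of CTGCATCA with 5mC was lost without CREB1 C replicate 2 or either CREB1 5mC array, that of TGCATCAT with 5mC when replicate 2 of either CREB1 C or CREB1 5mC was left out, and that of TGCATCAT with 5hmC without CREB1 C replicate 2 or either CREB1 5hmC array.

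The difference between the orientations was tested on the same arrays. In CREB1, TGATGCAA exceeded TTGCATCA by 55.2 on 5mC (SE 8.57, adjusted p = 0.000166) and by 138 on 5hmC (SE 8.57, adjusted p = 9.55e-09). Of the 15 pairs, 13 were called on 5mC and 13 on 5hmC, each with the composite higher on the synthesised strand, against 14.6% and 14.5% of all pairs called in either direction. The orientation difference of TGATGCAA grew by 47.9 from C to 5mC (SE 12.1, adjusted p = 0.0243), by 131 from C to 5hmC (SE 12.1, adjusted p = 1.52e-06) and by 82.7 from 5mC to 5hmC (SE 12.1, adjusted p = 0.000742). It grew in 10 of the 15 pairs with 5mC and in 12 with 5hmC, against 4.43% and 3.57% of all pairs changed in either direction, and in 6 and 12 pairs in the fit of the CREB1 arrays alone, against 3.65% and 2.83%. The 5mC growth of TGATGCAA lost its call in the fit of the CREB1 arrays alone (adjusted p = 0.14) and without CREB1 C replicate 1 (0.11), CREB1 C replicate 2 (0.0891) or CREB1 5mC replicate 1 (0.329).

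ATF1 moved in the same directions at a lower level. TGATGCAA had ATF1 z-scores of 4.61 and 4.99 on C, 18.3 and 24.5 on 5mC, and 42.9 and 40.5 on 5hmC. The arrays of the 3 kinds of DNA did not overlap, and its rank went from 1373 on C to 14 on 5mC and 2 on 5hmC. The changes of 16.6 with 5mC (SE 16.4, adjusted p = 0.674), 36.9 with 5hmC (adjusted p = 0.304) and 20.3 from 5mC to 5hmC (adjusted p = 0.581) missed the threshold in the fit of all 18 arrays, whose single spread per 8-mer includes the widely scattered CREB1 arrays. In the fit of the 6 ATF1 arrays all 3 passed (adjusted p = 0.00654, 1.53e-05 and 0.00754). The log2 signal rose by 1.60 with 5mC (SE 0.32, adjusted p = 0.00173) and by 1.80 with 5hmC (SE 0.32, adjusted p = 0.000874), and 5hmC lay above 5mC by 0.20 (SE 0.32, adjusted p = 0.707).

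None of the 15 members on the synthesised strand was called in ATF1 over all 18 arrays by limma, where 1.19% of all 8-mers rose with 5mC and 0.0998% with 5hmC. At an unadjusted p under 0.05 there were 4 members with 5mC and 5 with 5hmC, against 17.3% and 14.1% of all 8-mers. In the fit of the ATF1 arrays alone 6 rose with 5mC and 6 with 5hmC, against 2.9% and 0.448% of all 8-mers. On the log2 signal 8 and 3 rose, against 7.4% and 0.327%. Both modified arrays lay above both C arrays for 13 members with 5mC and for 12 with 5hmC, against 27.4% and 20.7% of all 8-mers. The median change was 2.40 with 5mC and 2.58 with 5hmC, and -0.03 over all 8-mers in each case. GATGCAAT was again next to the composite, with 1.40 and 1.73 on C, 14.5 and 16.7 on 5mC and 26.8 and 19.4 on 5hmC. None of the 30 members was called between 5hmC and 5mC in ATF1, where 0.134% of all 8-mers were higher and 0.591% lower on 5hmC, and at an unadjusted p under 0.05 there were 0 on the synthesised and 2 on the printed strand, against 16.3% of all 8-mers.

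With the composite on the printed strand, 3 of the 15 members fell in ATF1 with 5mC and 6 with 5hmC, against 2.06% and 2.08% of all 8-mers, and none rose. TTGCATCA had 3.15 and 4.15 on C, 0.803 and 0.513 on 5mC, and -0.999 and 0.0825 on 5hmC. It fell by 4.11 with 5hmC (SE 0.905, adjusted p = 0.0192), and its change of -2.99 with 5mC missed the threshold (SE 0.905, adjusted p = 0.0764), though it passed in the fit of the ATF1 arrays alone (0.00858). TGCATCAT had 7.08 and 4.93 on C, 0.050 and 1.01 on 5mC and 1.99 and 0.715 on 5hmC, and GTGCATCA had 5.79 and 4.64 on C, 0.829 and 0.964 on 5mC and 0.674 and 0.575 on 5hmC. Both fell with either modification (adjusted p from 0.0152 to 0.0422). ATGCATCA fell by 3.29 with 5mC (SE 0.83, adjusted p = 0.0353), from 3.30 and 4.07 to 0.150 and 0.651. TGCATCAC fell by 4.55 with 5hmC (SE 1.08, adjusted p = 0.0293), from 3.42 and 4.78 to -1.22 and 0.324. Every one of these ATF1 calls was lost when a single ATF1 array of the comparison was left out, except that of TGCATCAT with 5mC, which held without ATF1 C replicate 2, and the counts then ran from 0 to 1. With 5hmC the call of TGCATCAT was lost in 10 of the 18 fits that left out 1 array, so also without arrays outside the comparison. The 5mC count was 6 when either CREB1 C array was left out and 5 without JUND 5hmC replicate 2. In the fit of the ATF1 arrays alone 6 members fell with 5mC and 7 with 5hmC, against 4.97% and 5.0% of all 8-mers.

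On unmodified DNA the ATF1 orientation difference of TGATGCAA was small, and TGATGCAC, lower than its reverse complement by 4.36, was the only pair called, against 6.23% of all pairs. On the log2 signal 5 pairs were called, GATGCAAG as higher and TGATGCAC, TGATGCAG, TGATGCAT and TTGATGCA as lower than their reverse complements, against 22.7% of all pairs. TGATGCAA exceeded TTGCATCA in ATF1 by 20.7 on 5mC (SE 8.57, adjusted p = 0.091) and by 42.1 on 5hmC (SE 8.57, adjusted p = 0.00854). Pairs with the composite higher on the synthesised strand numbered 11 of 15 on 5mC and 9 of 15 on 5hmC, against 20.5% and 9.25% of all pairs called in either direction. The change of the difference from C was called for 1 pair with 5mC, TGATGCAC, and for none with 5hmC, against 1.46% and 0.0403% of all pairs. In the fit of the ATF1 arrays alone it was called for 10 pairs with each modification, against 5.21% and 0.844% of all pairs, TGATGCAA among them (adjusted p = 0.000931 with 5mC and 1.55e-06 with 5hmC).

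JUND bound the members weakly on all 3 kinds of DNA. TGATGCAA had JUND z-scores of 1.52 and 1.77 on C, 2.77 and 3.07 on 5mC, and 5.30 and 2.08 on 5hmC, and its changes were 1.27 (SE 16.4, adjusted p = 0.98) and 2.04 (SE 16.4, adjusted p = 0.987). TTGCATCA had 1.38 and 2.66 on C, -0.0372 and -0.0013 on 5mC, and -0.401 and 1.32 on 5hmC. No member in either orientation was called by limma against C, and at an unadjusted p under 0.05 there were 3, all with 5mC and the composite on the printed strand, where 16.7% of all 8-mers had such a p. After quantile normalization 1 of those 15 fell with 5mC, against 0.693% of all 8-mers. Both 5mC arrays lay above both C arrays for 7 of the 15 members on the synthesised strand, against 25.3% of all 8-mers, and both 5hmC arrays for 2, against 15.5%. On the printed strand 6 lay below with each modification, against 22.2% and 16.3%. Orientation pairs called in JUND numbered 0 on C, 0 on 5mC and 1 on 5hmC, GATGCAAG, against 18.5%, 27.0% and 10.6% of all pairs. On the log2 signal 9 pairs were called on 5mC, each higher with the composite on the synthesised strand, against 37.9% of all pairs in either direction, and TGATGCAA was among them (0.67, SE 0.157, adjusted p = 0.00158). Of all 8-mers, 0.799% rose and 0.244% fell in JUND with 5mC, 0.0% rose and 0.0% fell with 5hmC, and 0.946% were higher and 2.16% lower on 5hmC than on 5mC. With 5hmC the test made no call for any 8-mer, and 6123 had an unadjusted p under 0.05.

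The change with 5hmC of TGATGCAA was 124 larger in CREB1 than in JUND (SE 23.1, adjusted p = 0.00285), which was no longer called when CREB1 C replicate 2 was left out (adjusted p = 0.0765). It was 1 of 3 such members on the synthesised strand, with GTGATGCA and GGATGCAA. On the printed strand TGCATCAC was the 1 called, with a difference of -5.67. Of all 8-mers 3.06% were called in either direction, 113 with a positive and 1879 with a negative difference. With 5mC 1 member was called, GATGCAAG, with a positive difference. There 3.34% of all 8-mers were called in either direction, 333 positive and 1841 negative. Between CREB1 and ATF1 no member was called by limma in either comparison, where 0.272% of all 8-mers differed with 5mC and 0.215% with 5hmC. For TGATGCAA the CREB1 change exceeded that of ATF1 by 28.1 with 5mC (SE 23.1, adjusted p = 1.0) and by 89.6 with 5hmC (SE 23.1, adjusted p = 0.178). At an unadjusted p under 0.05 there were 3 members with 5mC and 5 with 5hmC, all on the synthesised strand, against 5.39% and 5.42% of all 8-mers.

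Binding was scored per array, with a z-score of at least 4 counted as bound. In CREB1, members with the composite on the synthesised strand that were bound numbered 2 and 5 on the C arrays, 12 and 11 on the 5mC arrays and 9 and 10 on the 5hmC arrays. With the composite on the printed strand the counts were 2 and 5, 1 and 0, and 0 and 0. In ATF1 they were 2 and 2, 7 and 8, and 7 and 7 on the synthesised strand, and on the printed strand 2 and 5 on C and 0 on all 4 modified arrays. In JUND they were 1 and 0 on C in both orientations, and on modified DNA 0 on each array but JUND 5hmC replicate 1, where 4 members on the synthesised strand were bound and replicate 2 had none. So the orientations had like counts on C and separate ranges on modified DNA in CREB1 and ATF1. The share of all 8-mers bound by CREB1 was 4.25% and 5.99% on C, 2.53% and 1.96% on 5mC and 1.72% and 1.80% on 5hmC. For ATF1 it was 2.96% and 3.00%, 1.16% and 1.28%, and 0.564% and 0.462%. For JUND it was 1.59% and 0.375% on C, 0.978% and 0.981% on 5mC, and 0.564% and 1.25% on 5hmC.

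TGATGCAA, the only member on the synthesised strand that holds both end bases of the composite, was set against the 8-mers with another end base. The other members also differed among themselves, with CREB1 means on 5hmC from 2.49 for TTGATGCA to 39.7 for GATGCAAT. In CREB1 on 5hmC, TGATGCAA exceeded the mean of the 3 8-mers with another last base by 131 (SE 7.17, adjusted p = 5.84e-10) and the mean of the 3 with another first base by 129 (SE 6.69, adjusted p = 3.04e-10). On C these differences were 9.16 (adjusted p = 0.422) and 11.7 (adjusted p = 0.255) on the z-score scale, but on the log2 signal both were called there too, at 1.09 (SE 0.136, adjusted p = 5.52e-07) and 1.53 (SE 0.122, adjusted p = 8.6e-11). The last A gained 122 from C to 5hmC (SE 10.1, adjusted p = 4.63e-08) and the first T gained 117 (SE 9.47, adjusted p = 2.87e-08), and both calls held without any 1 array. With 5mC they gained 42.1 (adjusted p = 0.013) and 34.5 (adjusted p = 0.0331), calls that were lost without either CREB1 C array or CREB1 5mC replicate 1 (adjusted p from 0.064 to 0.444). Changes of this kind were called for 5.55% of all end base comparisons with 5mC and 5.41% with 5hmC.

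TGATGCAT, TGATGCAG and TGATGCAC, which end otherwise, had CREB1 z-scores on 5hmC of 8.15 and 13.9, 5.57 and 12.8, and 2.94 and 3.83. AGATGCAA and GGATGCAA, without the first T, had 2.44 and 3.36, and 3.40 and 4.32. CGATGCAA, also without it, was higher, with a mean of 21.7. Levels also differed with the base next to the composite, which was not tested. Among members with its first 7 bases, the base before went with CREB1 means on 5hmC of 35.8 for G, 23.9 for A, 8.27 for C and 2.49 for T. Among members with its last 7 bases, the base after went with 39.7 for T, 20.1 for C, 3.86 for G and 3.76 for A. TTATGCAA, which has T in place of G at position 2, had CREB1 z-scores of 1.68 and 3.14 on C, 37.2 and 23.7 on 5mC, and 24.6 and 59.9 on 5hmC.

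On the printed strand the CREB1 level on C differed with the base at the TGA end of the composite. The A that ends TTGCATCA, which pairs with the first T of the composite, was worth 4.87 in CREB1 on C over the other 3 bases (SE 0.566, adjusted p = 1.94e-06). With 5mC this difference fell by 3.43 (SE 0.801, adjusted p = 0.0103) and with 5hmC it fell by 3.73 (SE 0.801, adjusted p = 0.00579). The first T of TTGCATCA, which pairs with the last A of the composite, made a difference of 0.656 on C (SE 0.659, adjusted p = 0.547). On unmodified DNA the 8 members that hold TGCATCA, and so the TGA side of the composite, had CREB1 means from 1.49 to 7.24, and the 7 that do not had means from -0.910 to 1.93, ranges that overlap at their ends.

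Since members share probes, the probes were also split into sets with no probe in common within an orientation: those with the whole composite, with its first 7 bases only, and with its last 7 bases only. Levels are log2 signals above the array median, as the median over the probes and the mean of the 2 arrays. In CREB1 the 17 probes with the whole composite on the synthesised strand had 1.58 on C, 3.48 on 5mC and 4.00 on 5hmC. The 51 probes with the first 7 bases only had 0.47, 1.14 and 0.76, and the 48 with the last 7 only had 0.09, 1.11 and 0.54. The 18 probes with the whole composite on the printed strand had 0.82, 0.27 and 0.10. In ATF1 the 17 probes had 0.88, 2.48 and 2.69, and the 18 had 0.71, 0.03 and -0.04. Thus in CREB1 probes that lacked an end base had higher medians on 5mC than on 5hmC, whereas probes with the whole composite did not. The contrast between these probe sets was not tested. A related limma test set TGATGCAA against members with another end base, for CREB1 5hmC minus 5mC. The first T gained 82.9 on the z-score scale (adjusted p = 8.64e-05) and the last A gained 79.5 (adjusted p = 0.000302). On the log2 signal the gains were 1.03 (adjusted p = 0.00151) and 0.70 (adjusted p = 0.0828), the latter not called. For the whole composite the CREB1 arrays overlapped, at 3.81 and 3.14 on 5mC and 3.76 and 4.25 on 5hmC. As means over probes, those with the first 7 bases only had 1.11 on 5mC and 1.07 on 5hmC, and those with the last 7 only had 1.21 and 1.02.

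All 17 probes with the whole composite on the synthesised strand were higher on 5hmC than on C, both in CREB1 (median change 1.83, from 1.12 to 3.71) and in ATF1 (median change 1.84, from 0.15 to 2.74). With 5mC, 16 of the 17 were higher in CREB1 and 16 in ATF1. On the printed strand 13 of 18 probes were lower in CREB1 with 5mC and 13 with 5hmC, and in ATF1 13 were lower with 5mC and 17 with 5hmC.

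The 3 brightest and the 3 dimmest of these probes on the CREB1 5hmC arrays show how wide the range was for one and the same octamer. Their variable bases are written 5′ to 3′ as on the synthesised strand, with the constant linker to the left, and capitals mark the composite.
brightest, synthesised strand: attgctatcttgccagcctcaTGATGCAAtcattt
next brightest, synthesised strand: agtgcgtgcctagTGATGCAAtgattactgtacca
less bright, synthesised strand: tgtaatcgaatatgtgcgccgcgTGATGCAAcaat
less dim, synthesised strand: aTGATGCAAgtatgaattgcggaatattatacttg
next dimmest, synthesised strand: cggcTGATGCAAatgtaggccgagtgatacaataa
dimmest, synthesised strand: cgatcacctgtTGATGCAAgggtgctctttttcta

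The brightest reached the top of the scanner's range on CREB1 5hmC replicate 1 and gave a raw signal of 64710 on replicate 2, and the dimmest gave 2509 and 3282 on the same arrays. Of the 17 probes, 1 and 3 reached the top of the range on the CREB1 5mC arrays. In ATF1 2 and 2 did on 5mC and 1 and 1 on 5hmC, so the levels of those probes are capped. In the 3 bright probes T or C followed the composite, and 21, 13 and 23 bases lay between it and the linker. In the 3 dim probes G or A followed it, and 1, 4 and 11 bases lay before the linker. Over the 17 probes the CREB1 5hmC level was 4.73 for the 5 with C after the composite, 4.83 for the 4 with T, 2.12 for the 4 with G and 1.45 for the 3 with A. Pearson's r of the level with the number of bases to the linker was 0.587 over the 17 probes on 5hmC and 0.681 on C, a description of these probes on shared arrays. The next base and the distance were not independent in so few probes, and their part in the levels was not tested.

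With the composite on the printed strand the 18 probes spanned a narrower range on CREB1 5hmC, from -0.28 to 1.41 above the array median, against 1.17 to 5.68 for the 17. The ends of that range are shown in the same way, with capitals marking the reverse complement of the composite.
brightest, printed strand: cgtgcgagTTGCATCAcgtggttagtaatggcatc
next brightest, printed strand: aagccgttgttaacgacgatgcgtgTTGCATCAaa
less bright, printed strand: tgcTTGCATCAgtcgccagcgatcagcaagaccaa
less dim, printed strand: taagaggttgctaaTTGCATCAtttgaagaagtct
next dimmest, printed strand: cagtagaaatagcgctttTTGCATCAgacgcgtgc
dimmest, printed strand: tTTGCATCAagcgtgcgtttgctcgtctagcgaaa

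The brightest of these had raw CREB1 5hmC signals of 3800 and 3026 and the dimmest 1095 and 1002, so that the brightest printed-strand probe was in the range of the dimmest synthesised-strand ones. Pearson's r of the level with the number of bases to the linker was 0.230 on C, 0.549 on 5mC and 0.011 on 5hmC in CREB1 over these 18 probes, and 0.518 on 5mC in ATF1.

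The chimera TGACGCAA differs from the composite by the CpG at its centre, so each composite member was set against the same 8-mer with CG in place of TG. On unmodified DNA the CpG form was much higher: TGATGCAA lay below TGACGCAA by 60.1 in CREB1 (difference -60.1, SE 6.35, adjusted p = 2.21e-07) and by 44.6 in ATF1 (difference -44.6, SE 6.35, adjusted p = 5.3e-05). On 5mC the CREB1 difference was -16.1 (SE 6.35, adjusted p = 0.112). On 5hmC TGATGCAA exceeded TGACGCAA in CREB1, by 75.2 (SE 6.35, adjusted p = 1.2e-06). TGACGCAA itself had CREB1 z-scores of 66.4 and 78.1 on C, 103 and 42.4 on 5mC, and 59.2 and 67.6 on 5hmC, ranges that overlapped. The difference changed in favour of the composite by 44.0 with 5mC (SE 8.99, adjusted p = 0.00119) and by 135 with 5hmC (SE 8.99, adjusted p = 9.15e-10), and leaving out either CREB1 C array ended the 5mC call (adjusted p = 0.128 and 0.222).

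In ATF1 the difference of TGATGCAA from TGACGCAA went from -44.6 on C to -23.2 on 5mC (adjusted p = 0.0237) and 9.16 on 5hmC (SE 6.35, adjusted p = 0.484). Its change was 53.8 with 5hmC (SE 8.99, adjusted p = 0.000944) and 21.4 with 5mC (SE 8.99, adjusted p = 0.178), and the latter turned to -43.0 after quantile normalization. On the printed strand the difference of TTGCATCA from its CpG form TTGCGTCA closed in CREB1 from -40.1 on C (SE 2.38, adjusted p = 1.88e-11) to -3.50 on 5mC (adjusted p = 0.378) and -1.23 on 5hmC (adjusted p = 0.8). There the CpG form fell, from 38.5 and 51.4 on C to 5.12 and 5.11 on 5mC and 2.32 and 1.65 on 5hmC.

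Over the members, the difference from the CpG form changed upwards in CREB1 for 7 of 15 with the composite on the synthesised strand with 5mC, for 11 with 5hmC, and for all 15 on the printed strand with either. These counts stand against 11.7% of all TG and CG pairs with 5mC and 13.7% with 5hmC, and with 5mC 3 of the 15 on the synthesised strand changed downwards. In ATF1 it changed upwards for 0 and 7 members with 5mC and for 2 and 8 with 5hmC on the synthesised and the printed strand, against 3.85% and 3.82% of all pairs. GTGATGCA was the member furthest below its CpG form in CREB1 on C, by a difference of -94.0 (SE 7.20, adjusted p = 1.04e-09), which was -28.6 on 5mC and -18.0 on 5hmC. GATGCAAT was 18.4 above its CpG form on 5hmC (SE 5.59, adjusted p = 0.0464). On the printed strand the members' own median change in CREB1 was -1.36 with 5mC and -1.32 with 5hmC. The median change of their difference from the CpG form was 13.7 with each, so the upward changes there were not rises of the members.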

How the data were processed

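The authors deposited an 8-mer z-score per array, a score on a linear scale, without a stated method in the sources used here, and per the file headers a median signal and median background intensity per probe for 40330 probes with 35 variable bases. All 18 arrays entered 1 fit in limma 3.58.1 (R 4.3.3) with a mean per group, moderated variances with a trend, two-sided p-values and, over all 65121 8-mers, Benjamini-Hochberg adjustment at 0.05, so each 8-mer had 1 spread for all groups. The same fit was made on differences of z-scores: an 8-mer minus its reverse complement (32225 pairs), TG minus CG forms (24445 pairs) and an end base against the other 3 (32300). The 409 8-mers carried by no probe were left out, and 6 null cells stayed missing, among them TGACGCAA on JUND 5mC replicate 2, so that group's value rests on 1 array. Probe signals were used as log2 without background correction, minus the array median. The scripts were tested on simulated data. With full values the text gives the composite in both orientations and, for each comparison with C, up to 3 members of each orientation with the largest called rise and fall; other members named were chosen after their values were seen. The members and lists were chosen with earlier results of these data known. Alternatives were a replicate block, no trend, the arrays of 1 protein, no JUND arrays, quantile normalization, log2 signals with and without normexp (offset 50), at least 10 probes, each array left out, binding at z-scores of 3 or 6, and other summaries of probes. Tables were handled in Python 3.11.15 (pandas 2.3.3, numpy 2.4.6, scipy 1.17.1).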

Additional observations from a re-analysis of the deposited data

Results flagged for a closer look

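In these results the effect of a modification differed between proteins in a test of the difference itself, made as an interaction in limma on all 18 arrays. Values are differences on the z-score scale.

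Against JUND, the change from C to 5hmC was larger in CREB1 for TGATGCAA by 124.436, for GTGATGCA by 30.085 and for GGATGCAA by 3.661, and for TGCATCAC the difference was -5.668. With 5mC it was larger for GATGCAAG by 4.825. Of these, GTGATGCA kept its call without any 1 array (highest adjusted p = 0.0252), TGATGCAA lost it without 1 array (0.0765), GATGCAAG without 6, GGATGCAA without 8 and TGCATCAC without 16. After quantile normalization TGATGCAA was called (114.566) and the others were not, with GTGATGCA at 41.997 (adjusted p = 0.112). On the log2 signal the difference for TGATGCAA was 2.12 (adjusted p = 0.00549) and that for GGATGCAA 0.34 (adjusted p = 0.405).

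The orientation difference grew more with 5hmC in CREB1 than in JUND for TGATGCAA by 126.924, for GATGCAAT by 37.51 and for GTGATGCA by 35.754, and these 3 calls held without any 1 array. With 5mC it grew more for GTGATGCA by 16.485, a call lost without each of 13 arrays in turn and after quantile normalization (15.537, adjusted p = 0.417). Between CREB1 and ATF1 the difference for GTGATGCA with 5hmC was 26.398, a call lost without each of 5 arrays in turn. It was not made on the log2 signal (0.84, adjusted p = 1.0) or after quantile normalization (13.774, adjusted p = 1.0). Between ATF1 and JUND none of the 15 pairs was called on z-scores, where 2 of all 32225 pairs were higher and 3 lower with each modification. On the log2 signal with 5hmC the growth was larger in ATF1 than in JUND for TGATGCAA (2.24, adjusted p = 0.000932) and GATGCAAT (1.86, adjusted p = 0.00815). On that scale CREB1 minus ATF1 for TGATGCAA was 0.575 (SE 0.313) and was not called.

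The gain of the last A of TGATGCAA with 5hmC was larger in CREB1 than in JUND by 119.873 and that of the first T by 115.882. Against ATF1 these were 86.619 and 84.294, held without any 1 array (highest adjusted p = 0.049 and 0.0348), and were 0.57 and 0.33 on the log2 signal, with adjusted p = 1.0 for both, and not called after quantile normalization either (31.326 and 31.304, adjusted p = 0.201 for both). The last A and first T gained more with 5hmC in ATF1 than in JUND by 33.3 (adjusted p = 0.596) and 31.6 (0.59), not called. On the log2 signal these differences were 1.37 (adjusted p = 0.0167) and 1.14 (0.0336), both called. TGATGCAA against its CpG form gained more with 5hmC in CREB1 than in JUND by 126.189 and than in ATF1 by 81.56. The ATF1 contrast was 0.28 on the log2 signal (adjusted p = 1.0) and lost its call without 2 arrays. After quantile normalization these were 49.879 (adjusted p = 0.00059) against JUND and 22.567 (adjusted p = 1.0) against ATF1. TTGCATCA against its CpG form gained more in CREB1 than in JUND by 33.882 with 5mC and by 35.314 with 5hmC, and after quantile normalization these were 4.66 (adjusted p = 0.579) and 6.07 (0.479).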

How the results depend on the processing

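The rise of TGATGCAA with 5hmC in CREB1 was called under all alternatives run. Values are z-score differences unless log2 is named, and where a call changed the cause was not tested.

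For TGATGCAA with 5mC in CREB1 the change of 44.7 passed without a trend (adjusted p = 0.0432), on the CREB1 arrays alone, without JUND arrays and with at least 10 probes (0.0102), and it was 51.8 after quantile normalization, 1.89 in log2 and 2.23 in log2 with normexp, all called. 5hmC minus 5mC in CREB1 lost its call in log2 (0.52) and with normexp (1.07). In ATF1 the ATF1 arrays alone, quantile normalization, log2 and normexp gave called changes of 16.6, 47.4, 1.60 and 1.82 with 5mC, and 36.9, 87.6, 1.80 and 2.90 with 5hmC. ATF1 5hmC minus 5mC passed on its own arrays (20.3) and after quantile normalization (40.1). JUND 5hmC minus 5mC, not called, turned negative in log2 (-0.16) and with normexp (-0.06). The orientation difference grew with 5mC by 47.9 in CREB1, not called on the CREB1 arrays alone. In ATF1 the same 4 alternatives gave called growth of 19.6, 49.9, 2.29 and 2.86 with 5mC and 41.0, 91.1, 2.56 and 4.19 with 5hmC. TGATGCAA minus TGACGCAA with 5mC was 7.37 in CREB1 after quantile normalization, not called, and in ATF1 -43.0 after quantile normalization, 1.38 in log2 and 1.72 with normexp, all called. With 5mC in CREB1 the last A lost its call on the CREB1 arrays alone (42.1), and the first T did without a trend (34.5), on the CREB1 arrays alone (34.5) and with normexp (0.46).

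TTGCATCA in CREB1 was not called with 5mC on the CREB1 arrays alone (-3.19), after quantile normalization (-1.26) or with normexp (-0.64), nor with 5hmC after quantile normalization (-2.01). In ATF1 with 5mC it was called on the ATF1 arrays alone (-2.99), in log2 (-0.69) and with normexp (-1.04), and with 5hmC it was not called after quantile normalization (-3.51).

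Members that rose on the synthesised strand in CREB1 numbered 3 after quantile normalization and 12 in log2 with 5mC, against 1.34% and 5.3% of all 8-mers. On the CREB1 arrays alone 2 rose with 5hmC, against 1.02%. In ATF1 members that rose numbered 6, 2, 8 and 6 with 5mC on its own arrays, after quantile normalization, in log2 and with normexp, and 6, 8, 3 and 5 with 5hmC, where no trend gave 2. Of all 8-mers, 2.9% rose in ATF1 with 5mC on its own arrays and 7.4% in log2, and 0.448% and 0.327% with 5hmC. Members that fell on the printed strand in CREB1 numbered 0 with 5mC and 2 with 5hmC after quantile normalization, against 1.79% and 2.14%. In ATF1 with 5mC 6 fell on its own arrays, against 4.97%, 6 in log2 and 5 with normexp. For the other settings the share of all 8-mers is not given, so those counts were not set against a background. With the replicate block 1 member rose in ATF1 with 5hmC, TGCATCAT with 5hmC in ATF1 lost its call (adjusted p = 0.0514), and no other value recomputed with the block changed its call or moved by over 1.5 times. Over 9 pairs of groups of the same protein the correlation of same-numbered deviations ran from -0.166 to 0.636, with a median of 0.088. Whether arrays with the same replicate number were made together was not tested.

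The mean number of bound members on the synthesised strand at a z-score of 3 was 6.0 in CREB1 C, 13.0 in CREB1 5hmC, 3.0 in ATF1 C, 10.0 in ATF1 5mC, 10.0 in ATF1 5hmC and 1.0 in JUND 5mC, and on the printed strand 7.0 in ATF1 C. At a z-score of 6 it was 8.5 in CREB1 5mC, 8.5 in CREB1 5hmC, 0.0 in ATF1 C, 5.5 in ATF1 5mC and 5.0 in ATF1 5hmC, and on the printed strand 0.5 in ATF1 C. Taking the mean over whole-composite probes gave log2 levels on the printed strand of 0.28 in CREB1 5hmC, 0.060 in ATF1 5mC and 0.0083 in ATF1 5hmC, and on the synthesised strand of 3.61 in CREB1 5hmC, 1.14 in ATF1 C and 0.65 in JUND 5hmC. Without probes that held another half-site the levels were 2.82 in ATF1 5hmC, 0.29 in JUND C, 0.64 in JUND 5mC and 0.60 in JUND 5hmC.

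Leaving out each array in turn, TGATGCAA ranged from 24.6 to 64.7 with 5mC in CREB1, from 56.6 to 107 for 5hmC minus 5mC in CREB1 and from -0.844 to 2.38 for 5hmC minus 5mC in JUND. TTGCATCA ranged from -4.45 to -1.93 (CREB1 5mC), -5.16 to -2.94 (CREB1 5hmC), -3.49 to -2.49 (ATF1 5mC) and -4.65 to -3.57 (ATF1 5hmC). The CREB1 5mC growth of the orientation difference ranged from 29.1 to 66.6. TGATGCAA minus TGACGCAA with 5mC ranged from 33.6 to 54.5 in CREB1 and from 14.3 to 28.6 in ATF1, called there without either CREB1 5hmC array. With 5mC in CREB1 the last A ranged from 22.2 to 61.9 and the first T from 19.4 to 49.7. Counts of members that rose ran from 2 to 9 and 5 to 14 in CREB1 with 5mC and 5hmC, and from 0 to 1 in ATF1 with each. Counts that fell ran from 1 to 6 and 2 to 7 in CREB1, and from 0 to 6 in ATF1 with each.

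With 2 arrays a group, the number of arrays limits the precision, and single arrays decided many calls. Of the other values recomputed, 401 kept their call and 67 lost it, without a change of direction.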
